A study of Homo sapiens with 10 samples.

Results

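The genes described here encode the protein parts of the 2 ribosomes of a human cell, the cytosolic one and the mitochondrial one, in RD cells, an established rhabdomyosarcoma line. They were chosen by symbol alone: a gene counted as cytosolic where its symbol was RPL or RPS with a number and at most 1 of the letters A, X or L, or was RPLP0, RPLP1, RPLP2 or RPSA, and as mitochondrial where it was MRPL or MRPS with a number and at most 1 of the letters A, B or C. Of 23228 genes in the read-count table, 158 met this rule, 82 cytosolic and 76 mitochondrial. RNA from 10 libraries was sequenced, 2 in each of 5 groups. Cells were transfected for 48 h with NRAS siRNA 1, with NRAS siRNA 2, or with a nonspecific siRNA as their control, each at 10 nM with Lipofectamine RNAi MAX. Other cells were treated for 24 h with SCH772984, which blocks the ERK kinases, at 300 nM, or with DMSO as its control. All groups share the 1 cell line, and the labels do not say whether the 2 libraries of a group came from separate cultures, so that a p-value speaks of the variation seen among these libraries alone, and this could be technical.

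The cytosolic ribosome translates mRNAs made in the nucleus, whereas the mitochondrial ribosome translates the few proteins encoded in mitochondrial DNA; the proteins of both are encoded in the nucleus. Messenger RNAs of cytosolic ribosomal proteins carry a 5′ terminal oligopyrimidine (TOP) tract, a C at the cap followed by a run of pyrimidines, through which growth signals acting on mTOR govern their translation. Genes of mitochondrial ribosomal proteins lack this tract as a class and are known for promoter sites of factors such as NRF1, GABP and YY1. In tumour cells, RAS and ERK signalling is known to feed into ribosome production, among others through MYC and through the RSK kinases, which phosphorylate the ribosomal protein RPS6.

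After a filter on low counts, 76 cytosolic genes (45 of the large and 31 of the small subunit) and 75 mitochondrial genes (47 and 28) were among 14761 genes tested. The 7 others were RPL10L, RPL39L and RPL3L, variants known from other tissues, with 0 to 3 reads per library, MRPS24, with 0 to 4 reads, and 3 genes listed at 0 in every library, among them RPL21. A list of 9 ribosomal proteins with other symbols fell outside the rule, among them FAU and GNB2L1 of the cytosolic ribosome, and DAP3, PTCD3, AURKAIP1, CHCHD1, GADD45GIP1 and ICT1 of the mitochondrial one. The table also held 29 rows of ribosomal protein pseudogenes with 77352 reads in all and 4 rows of readthrough genes, such as RPS10-NUDT3, at 0 reads. Libraries held 23224063 to 30768970 reads assigned to genes, and reads that aligned to several places, which were not counted for any gene, came to 27.0 to 28.9% of all reads in the table, those assigned to no gene included. NRAS itself had 52.3 ± 0.165 and 49.5 ± 2.14 CPM (reads scaled to a common library size) with NRAS siRNA 1 and 2, against 246 ± 36.8 with the nonspecific siRNA, and 257 ± 30.8 with SCH772984, against 276 ± 9.37 with DMSO (SD, n = 2 each). Of 9 muscle lineage markers, 5 reached 1 CPM on average (DES, PAX3, MEF2C, CDH15 and FGFR4), and MYOD1, MYOG, PAX7 and CHRNA1 did not. CDH15 ran from 0.207 to 6.70 CPM over the libraries. MYOD1 and MYOG averaged 0.0943 and 0.0357 CPM, so these markers do not show a muscle lineage, and the name of the line is from the labels. The 9 summed to 79.0 to 88.7 and 86.9 to 95.5 CPM with NRAS siRNA 1 and 2, against 80.7 to 93.8 CPM with the nonspecific siRNA. None of 4 blood or 3 endothelial markers reached 1 CPM, and 1 of 3 epithelial markers (EPCAM, at 2.09 CPM) did.

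Cytosolic genes stood above mitochondrial ones in level. On the scale of mean CPM per kb of transcript, the median was 331 for the tested cytosolic genes and 38.3 for the mitochondrial ones. The cytosolic levels ran from 1.00 CPM per kb for RPS28 to 2781 CPM per kb for RPL37A, a protein of the large subunit, and the mitochondrial ones from 7.94 for MRPS31 to 185 for MRPL51. Reads that match a gene and a copy of it elsewhere in the genome were dropped, and such copies are common for cytosolic genes. GENCODE named 1133 pseudogenes after the cytosolic genes, with a median of 9 per gene and 91 for RPL23A, and 70 after the mitochondrial genes, with a median of 0 and at most 8, for MRPS21. The 16 cytosolic genes with 20 or more pseudogenes had a median level of 147 CPM per kb, against 382 CPM per kb for the 65 with fewer. Across genes, Spearman's rho of level and number of pseudogenes was -0.24 over 81 cytosolic genes and -0.07 over 76 mitochondrial genes, a description over points that share the same libraries. Levels of cytosolic genes with near-identical copies are uncertain for this reason. RPS27, with 15 pseudogenes, had 0.645 to 1.26 CPM over all libraries, while its near relative RPS27L had 33.8 to 40.7 CPM. The part of dropped reads in the level of RPS27 was not tested.

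**Figure D1:**
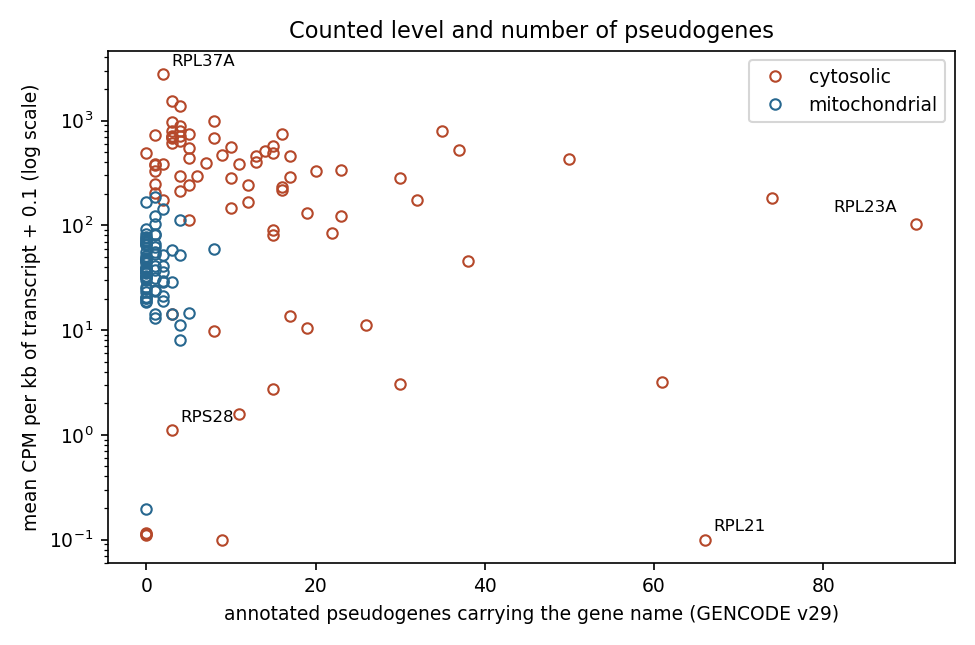
Level of each ribosomal protein gene (mean CPM over all libraries per kb of transcript, plus 0.1, log scale) against the number of pseudogenes that GENCODE names after it; red circles are cytosolic and blue circles mitochondrial genes. Mitochondrial genes have at most 8 pseudogenes and keep to a band between 7.94 and 185 CPM per kb, apart from MRPS24, whereas cytosolic genes reach from RPL21, listed at 0 reads, to RPL37A at 2781 CPM per kb.

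The sequence around the start of transcription separated the classes too. In RefSeq promoters of GRCh38.p14, which reach from 250 bases before the annotated start to 50 bases from it, 64 cytosolic and 67 mitochondrial genes were found. A C followed by at least 4 pyrimidines, beginning within 5 bases of the start, was present in 53 of the 64 cytosolic genes (82.8%), in 16 of the 67 mitochondrial genes (23.9%) and in 29.98% of 9985 tested genes. The start itself was a C in 76.6% of cytosolic genes, 13.4% of mitochondrial genes and 16.2% of tested genes. The 30 bases below, 15 before the start and 15 from it on the strand of the gene, are those of genes on which the results turn, with the C-led pyrimidine run in capitals where there is one.
RPL37A, chr2:216498829-216498858, plus strand: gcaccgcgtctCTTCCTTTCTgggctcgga
RPSA, chr3:39406705-39406734, plus strand: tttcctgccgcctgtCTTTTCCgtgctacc
RPL29, chr3:51995881-51995910, minus strand: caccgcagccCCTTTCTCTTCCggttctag
RPLP1, chr15:69452803-69452832, plus strand: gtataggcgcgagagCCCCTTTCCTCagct
RPL22, chr1:6199581-6199610, minus strand: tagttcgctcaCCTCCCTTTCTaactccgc
RPL22L1, chr3:170870181-170870210, minus strand: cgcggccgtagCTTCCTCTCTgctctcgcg
RPL27, chr17:42998404-42998433, plus strand: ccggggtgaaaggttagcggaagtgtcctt
MRPL39, chr21:25607467-25607496, minus strand: gcgacggttctcaccgctgctatggaggcg
MRPS5, chr2:95121794-95121823, minus strand: ggcggaggccgaggcgcggctcggactcca
MRPL41, chr9:137551864-137551893, plus strand: cggccaatcggagccgCTCTTgctgcgacg
MRPL53, chr2:74472666-74472695, minus strand: ccgcctgcacgagttCTTCCggggcggagg
The runs of the cytosolic genes shown are longer than those of MRPL41 and MRPL53, and the window of RPL27 holds none near its annotated start. Runs had a median length of 11 bases in cytosolic and 5 bases in mitochondrial genes that held one. RPL22L1, a paralog of RPL22 outside the rule, has a run much like that of RPL22. Searched on both strands of the whole window, CCGGAAGT (an ETS and GABP motif) was present in 15.6% of cytosolic, 17.9% of mitochondrial and 9.18% of tested genes. AAGATGGCG (a YY1 motif) was present in 7.81%, 19.4% and 4.52% of them in the same order of classes. The palindromic NRF1 motif was present in 1.56%, 1.49% and 2.54%, and CACGTG (the E-box bound by MYC) in 6.25%, 13.4% and 12.4%. These matches describe letters, not binding.

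Cytosolic genes took between 2.21 and 2.64% of all gene reads in a library, and mitochondrial genes between 0.387 and 0.481%. Cytosolic genes took 2.48% and 2.37% of gene reads with NRAS siRNA 1 and 2.27% and 2.23% with NRAS siRNA 2, against 2.58% and 2.25% with the nonspecific siRNA. With SCH772984 they took 2.29% and 2.21%, against 2.38% and 2.64% with DMSO. Both inhibitor libraries lay below both DMSO libraries, and the siRNA groups overlapped with their control except that the higher value of NRAS siRNA 2 exceeded only the lower control. Mitochondrial genes took 0.407% and 0.418% with NRAS siRNA 1 and 0.387% and 0.401% with NRAS siRNA 2, against 0.440% and 0.419% with the nonspecific siRNA. With SCH772984 they took 0.399% and 0.404%, against 0.432% and 0.481% with DMSO. Every mitochondrial value of a treated library was below both values of its control. With 2 against 2 libraries no permutation test can pass a threshold, and none was made of these shares.

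With SCH772984 a part of both classes fell by small amounts, and RPL37A and MRPL39 fell furthest. Against DMSO, the quasi-likelihood test of edgeR, with p-values adjusted by Benjamini-Hochberg over all tested genes at a threshold of 0.05, called 24 of 76 cytosolic genes, 23 lower and 1 higher, and 17 of 75 mitochondrial genes, all lower, where 28% of all tested genes were called, 14.8% lower and 13.2% higher. For the median gene, message was 14.1% less in the cytosolic and 14.0% less in the mitochondrial class. The median log2 fold change was -0.22 in each class and 0.00 over all tested genes. It was -0.08 over 900 tested genes with transcripts under 1000 bases, the size range of most cytosolic members, whose median length was 764 bases against 1137 for mitochondrial members. In 54 of 76 cytosolic and 53 of 75 mitochondrial genes both inhibitor libraries were below both DMSO libraries, which was so for 33.9% of all tested genes. The large subunit gave 16 lower and 1 higher of 45 in the cytosol and 9 lower of 47 in mitochondria, and the small subunit gave 7 lower of 31 and 8 lower of 28. The medians of the classes were alike, and no test of a difference between the classes was made. In bulk RNA, a lower level in every cell and fewer cells with a high level cannot be told apart. The 9 muscle lineage markers summed to 112 to 119 CPM with SCH772984, against 88.5 to 104 CPM with DMSO, and the part of this in the result was not tested. These counts rest on single libraries. In DMSO replicate 2 the median member stood 0.22 (cytosolic) and 0.25 (mitochondrial) above its mean over all libraries on the log2 scale. Without that library the medians were -0.09 and -0.09, and without SCH772984 replicate 1 they were -0.22 and -0.18. In both fits, and without SCH772984 replicate 2, fewer members and fewer of all tested genes were called than with all libraries. Upper-quartile scaling gave 11 and 11, where 26.7% of all tested genes were called, 1725 of them lower, against 2180 lower as reported.

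**Figure D2:**
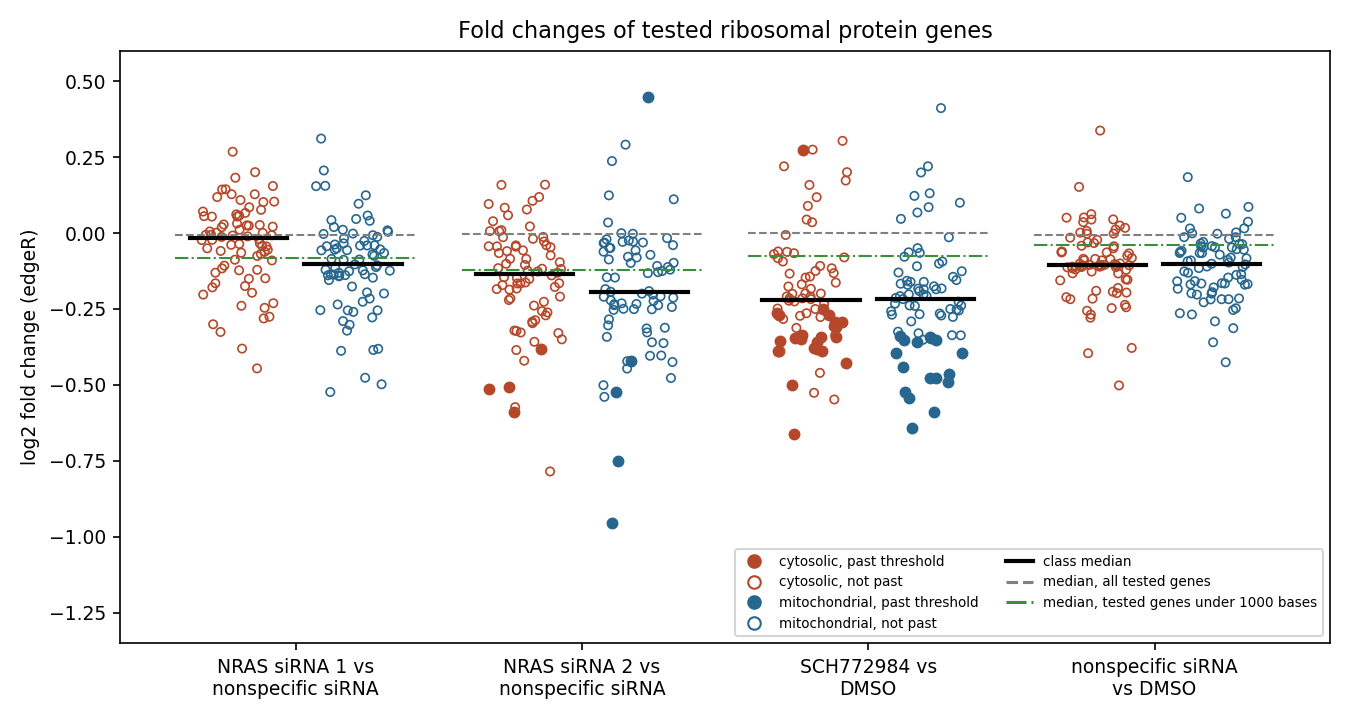
Fold changes (log2, edgeR) of the tested cytosolic (red) and mitochondrial (blue) ribosomal protein genes in 4 comparisons; filled points passed the threshold, black bars are class medians, the grey dashed line is the median of all tested genes and the green line that of tested genes under 1000 bases. With SCH772984 both class medians lie at -0.22, below both reference lines, and nearly all filled points are negative.

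Among the cytosolic genes RPL37A, the most counted of them, fell furthest. It had 1035 and 1014 CPM with SCH772984, against 1549.6 and 1690.5 CPM with DMSO, a log2 fold change of -0.66 (SE 0.10, edgeR adjusted p = 0.00103). Both inhibitor values lay below those of the 8 other libraries. RPL9, a large-subunit protein whose gene has many copies, had 9.13 and 8.94 CPM with SCH772984, against 11.97 and 13.6 CPM with DMSO (log2 fold change -0.50, SE 0.13, edgeR adjusted p = 0.0203). RPSA, a small-subunit protein also known as a laminin receptor, had 173 and 172 CPM, against 207 and 257 CPM (log2 fold change -0.43, SE 0.11, edgeR adjusted p = 0.0159). In both genes the groups did not overlap, and DMSO replicate 2 was the higher control. The other 20 lower genes changed by -0.39 (RPL27) to -0.25 (RPS27A, made as a fusion with ubiquitin), among them RPL23A, RPL35, RPL12, RPS7, RPL24, RPL35A, RPL30, RPL38, RPL6, RPL32, RPS3A, RPL14, RPS14, RPS25, RPL4, RPL26 and RPS21. RPL37A was called in all of the 13 alternative settings and left-out libraries tried, whereas RPL9, RPSA and RPL12 were not without DMSO replicate 2, SCH772984 replicate 1 or SCH772984 replicate 2.

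RPL22, a large-subunit protein that also binds RNA outside the ribosome, was the 1 cytosolic gene that rose. It had 133 and 130.4 CPM with SCH772984, against 103 and 114 CPM with DMSO (log2 fold change 0.27, SE 0.09, edgeR adjusted p = 0.0373). The groups did not overlap. The call was lost without DMSO replicate 1, without either inhibitor library, without a filter on low counts and with only the compared groups in the fit. Its paralog RPL22L1, known in mouse to be repressed by RPL22 protein, had 11.6 and 14.6 CPM with SCH772984, against 26.1 and 35.6 CPM with DMSO, a log2 fold change of -1.24 (SE 0.26, edgeR adjusted p = 0.00588). All inhibitor values lay below the DMSO values. Of 9 listed paralogs and variants, some of them members, 5 were tested and 2 fell, the other being RPL7L1 at -0.49. RPL22L1 was not called without DMSO replicate 2 or without SCH772984 replicate 1.

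Among functional groups of the cytosolic class, of the 3 stalk proteins, which recruit elongation factors to the large subunit, none was called: RPLP0 had an estimate of -0.21, while RPLP1 and RPLP2 had positive estimates of 0.27 and 0.16. RPLP1 had 404 and 314 CPM with SCH772984, against 287 and 307 CPM with DMSO, so that both inhibitor libraries were higher but far apart from each other. Of the pair that binds the short ribosomal RNA of the large subunit, and MDM2 when outside the ribosome, RPL5 fell by 0.31 on the log2 scale and RPL11 had an estimate of -0.20 (edgeR adjusted p = 0.123). RPS6, the substrate of the S6 and RSK kinases, had 400.1 and 411 CPM, against 461 and 518 CPM (log2 fold change -0.27, SE 0.09, edgeR adjusted p = 0.0504), just outside the threshold. RPL39 (-0.34), RPL10 (-0.25), RPL3 (-0.07) and RPS27L (-0.01) were not called, and RPS27 had the highest cytosolic estimate, 0.30, at about 1 CPM and with an SE of 0.36.

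**Figure D3:**
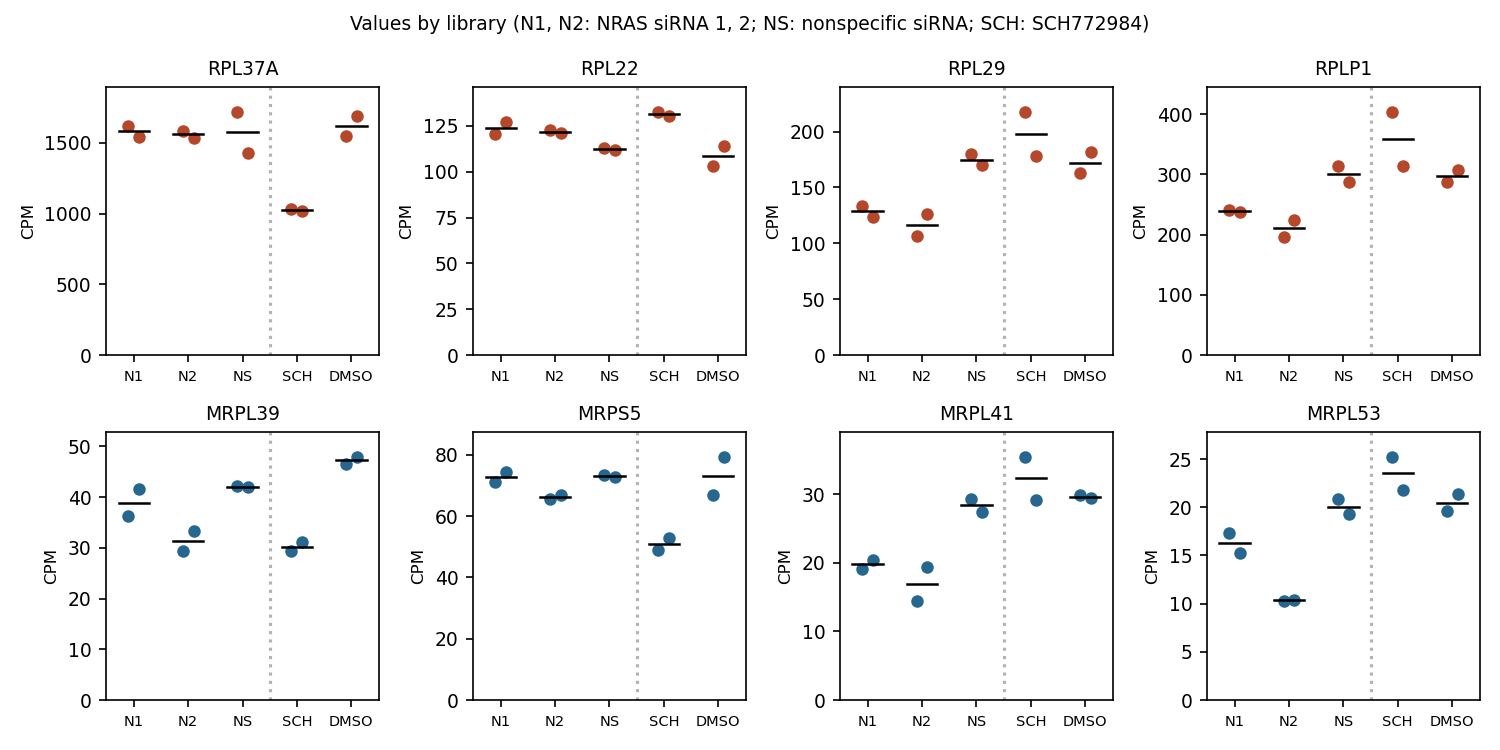
CPM of 8 ribosomal protein genes in each library (points) with the group mean (bar); red genes are cytosolic, blue genes mitochondrial, and the dotted line parts the siRNA groups from the inhibitor groups. RPL37A, MRPL39 and MRPS5 are low with SCH772984, while RPL29, RPLP1, MRPL41 and MRPL53 are low with the NRAS siRNAs and not with SCH772984.

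Among the mitochondrial genes MRPL39, a large-subunit protein, fell furthest. It had 29.4 and 31.1 CPM with SCH772984, against 46.5 and 47.9 CPM with DMSO (log2 fold change -0.64, SE 0.11, edgeR adjusted p = 0.0022). The DMSO libraries were close together and well above the inhibitor libraries, and the call held in all of the 13 alternatives tried. MRPL18, a large-subunit protein, had 51.6 and 60.7 CPM with SCH772984, against 77.01 and 91.99 CPM with DMSO (log2 fold change -0.59, SE 0.12, edgeR adjusted p = 0.00489). MRPS5, a protein of the small subunit, had 48.97 and 52.9 CPM, against 67.02 and 79.3 CPM (log2 fold change -0.52, SE 0.10, edgeR adjusted p = 0.00455). Neither gene's groups overlapped. MRPL18 was not called without DMSO replicate 2 or without SCH772984 replicate 1, and MRPS5 not without DMSO replicate 2. MRPL13, the most counted mitochondrial member, had 144 and 166 CPM, against 207 and 220.3 CPM (log2 fold change -0.46, edgeR adjusted p = 0.00473), and was not called without SCH772984 replicate 1. The remaining 13 changed by -0.54 (MRPL36) to -0.34 (MRPS15) and were MRPS18B, MRPL21, MRPS2, MRPS22, MRPS23, MRPL48, MRPL22, MRPL35, MRPL47, MRPS28 and MRPS27 besides these 2. Proteins named after a bacterial counterpart gave 10 lower of 44 and those with higher numbers 7 lower of 31. MRPL55 had the highest estimate, 0.41, with 23.6 and 16.6 CPM, against 15.5 and 14.6 CPM, and was not called.

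**Figure D4:**
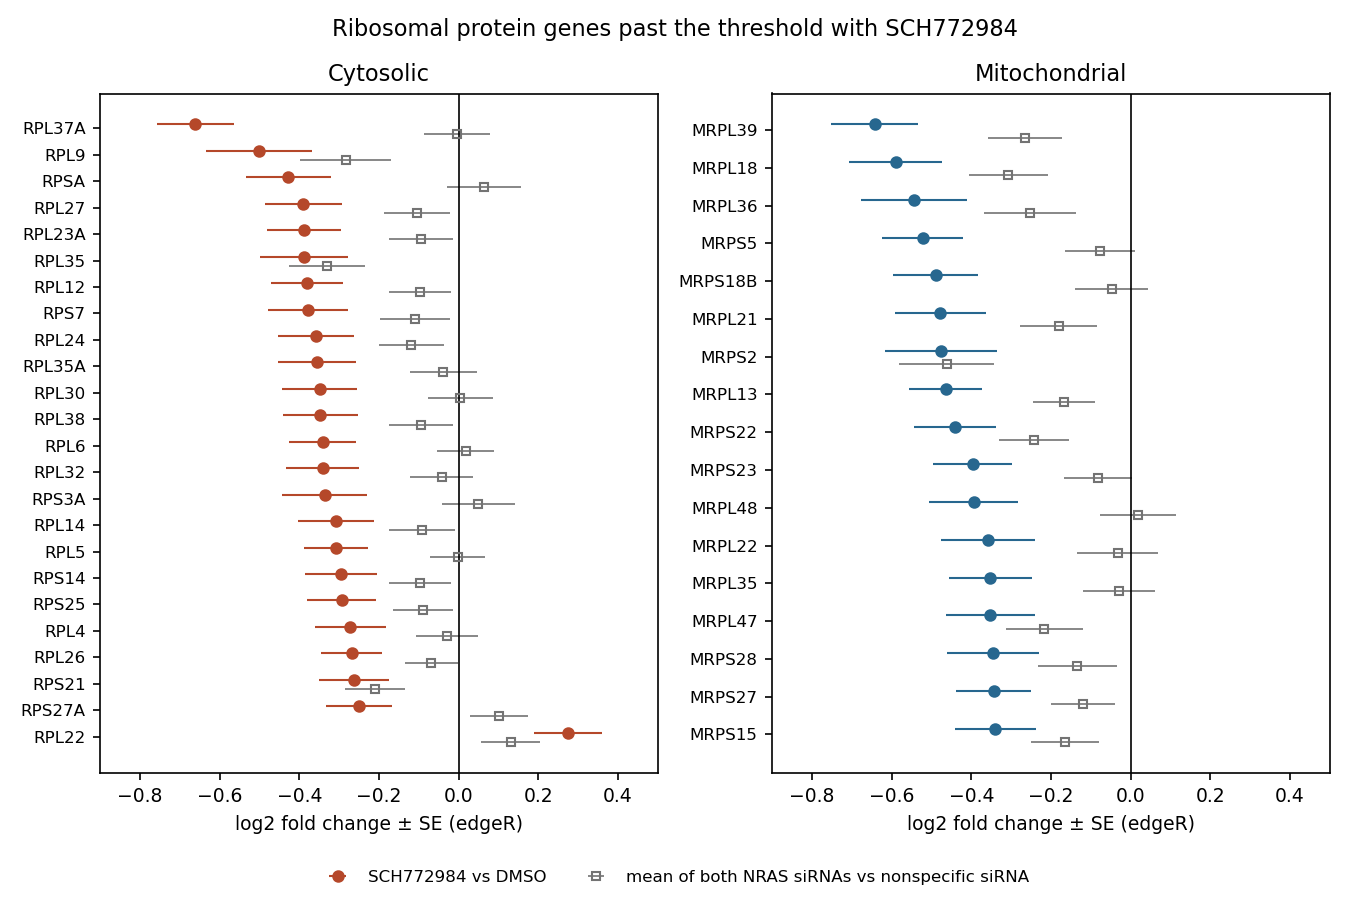
Log2 fold changes with their standard errors (edgeR) of the cytosolic and mitochondrial ribosomal protein genes that passed the threshold with SCH772984 against DMSO (filled circles), beside the mean effect of both NRAS siRNAs against the nonspecific siRNA in the same genes (open squares). The siRNA values lie nearer to 0 than the inhibitor values in every gene shown, and MRPS2 is the 1 gene past the threshold in both.

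In lists of genes that work with these ribosomes, the shares called lower with the inhibitor are to be read against the 14.8% of all tested genes called lower, which most of them are near. Of 9 ribosomal proteins with other symbols 4 fell, among them GNB2L1 (-0.28) of the cytosol and DAP3 (-0.34) and ICT1 (-0.53) of mitochondria. Of 19 tested genes with other TOP mRNAs, such as translation factors, 3 fell (EEF1B2, BTF3 and NPM1, with -0.38, -0.35 and -0.51) and none rose, with a median of -0.12. Of 32 factors of mitochondrial translation and ribosome assembly, 5 fell and none rose, with a median of -0.15: TFB1M, TUFM, MTERFD1, TACO1 and SLIRP. TFB1M, the methyltransferase that modifies the small-subunit rRNA of mitochondria, had 19.2 and 19.5 CPM with SCH772984, against 69.8 and 61.3 CPM with DMSO. Its log2 fold change of -1.76 (SE 0.11, edgeR adjusted p = 4.94e-06) was far beyond that of any ribosomal protein gene. Of 20 mitochondrial aminoacyl-tRNA synthetase genes, 3 fell, among them IARS2 (-0.26) and MARS2 (-0.51). Of 16 listed regulators of ribosomal protein mRNA, 3 fell: EIF4EBP1, a repressor of translation under mTOR (-0.60), and the RSK kinases RPS6KA1 (-0.80) and RPS6KA3 (-0.87). Of 11 regulators of mitochondrial biogenesis, 3 fell: PPARGC1B (-1.27), NRF1 (-0.51) and GABPB1 (-0.44). In each of these lists no gene rose past the threshold, where 13.2% of all tested genes did.

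With the NRAS siRNAs fewer of these genes were called, among them RPL29 and RPLP1 of the cytosolic and MRPL41 and MRPL53 of the mitochondrial ribosome, all lower. With NRAS siRNA 1 against the nonspecific siRNA edgeR called 0 of 76 cytosolic and 0 of 75 mitochondrial genes, where 2.07% of all tested genes were called, and the class medians were -0.02 and -0.10 against -0.01 for all genes and -0.08 for genes under 1000 bases. DESeq2 called 1 and 2, where it called 5.13% of all tested genes. With NRAS siRNA 2 edgeR called 4 cytosolic genes, all lower, and 5 mitochondrial genes, 4 lower and 1 higher, where 6.43% of all tested genes were called, 3.84% lower and 2.59% higher, with class medians of -0.14 and -0.19 against -0.12 for genes under 1000 bases. With 1 library of either group left out, the class medians ran from -0.19 to -0.06 and from -0.21 to -0.11. The calls of members depended on the library left out, as did those over all tested genes. Both siRNAs share the same 2 control libraries. With their mean effect, 3 cytosolic and 5 mitochondrial genes were called, all lower, where 7.95% of all tested genes were called, 4.99% lower and 2.97% higher. In 19 cytosolic and 30 mitochondrial genes all 4 siRNA libraries were below both controls, which was so for 19.3% of all tested genes. With NRAS siRNA 1 alone it was 21 and 33 genes, where it was 25.5% of all genes, and with NRAS siRNA 2 alone 48 and 48 genes, where it was 29.1%. The medians were -0.09 and -0.13, against -0.10 for tested genes under 1000 bases. That set is not matched in length to mitochondrial members, whose median was 1137 bases. Compared directly, the siRNAs differed in none of the 151 tested members by edgeR, where 0.427% of all tested genes were called.

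RPL29, a large-subunit protein, was the cytosolic gene that fell furthest among those called. It had 133 and 124 CPM with NRAS siRNA 1 and 106 and 126 CPM with NRAS siRNA 2, against 179.9 and 170.1 CPM with the nonspecific siRNA (log2 fold change of the mean -0.52, SE 0.10, edgeR adjusted p = 0.0183). All 4 siRNA libraries lay below both controls. RPLP1, of the stalk, had 242 and 238 CPM and 196 and 225 CPM with NRAS siRNA 1 and 2, against 314 and 287 CPM with the nonspecific siRNA (mean log2 fold change -0.42, SE 0.10, edgeR adjusted p = 0.0389). RPL36 changed by -0.40 (edgeR adjusted p = 0.0416). RPLP2 had -0.30 and was not called (edgeR adjusted p = 0.0984), and RPLP0 had an estimate of 0.02. RPL17 had the lowest cytosolic estimate, -0.58, at 6.30 and 7.75 CPM and 4.44 and 6.19 CPM with NRAS siRNA 1 and 2, against 10.2 and 8.08 CPM, and was not called (SE 0.19, edgeR adjusted p = 0.0813). RPS9 was called with NRAS siRNA 2 alone (-0.38, edgeR adjusted p = 0.0474).

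The mitochondrial genes called with the mean of both siRNAs were MRPL41, MRPL53, MRPL12, MRPL52 and MRPS2. MRPL53 had 17.3 and 15.2 CPM with NRAS siRNA 1 and 10.3 and 10.4 CPM with NRAS siRNA 2, against 20.9 and 19.3 CPM with the nonspecific siRNA (mean log2 fold change -0.63, SE 0.11, edgeR adjusted p = 0.0124). It was lower with NRAS siRNA 2 than with NRAS siRNA 1 in both libraries, a difference of -0.65 that did not pass the threshold (edgeR adjusted p = 0.103). Of the 6 siRNA and control libraries, leaving out nonspecific siRNA replicate 1 was the 1 case in which MRPL53 was not called. MRPL41 had 19.1 and 20.4 CPM and 14.4 and 19.4 CPM with NRAS siRNA 1 and 2, against 29.3 and 27.4 CPM (mean log2 fold change -0.64, SE 0.13, edgeR adjusted p = 0.0212). MRPL12, the stalk protein of the mitochondrial ribosome, had 51.7 and 57.96 CPM and 47.6 and 60.2 CPM, against 77.2 and 77.6 CPM (-0.51, SE 0.12, edgeR adjusted p = 0.0287). In these 3 genes every siRNA library was below both controls. MRPL52 and MRPS2 each changed by -0.46. With NRAS siRNA 2, MRPL39 also fell (-0.42, edgeR adjusted p = 0.0486) and MRPS14, of the small subunit, rose (0.45, edgeR adjusted p = 0.0426). With the mean effect the calls of members depended on the library left out, most on nonspecific siRNA replicate 1, as did those over all tested genes. With each siRNA or control library left out in turn, the class medians ran from -0.1252 to -0.0023 and from -0.152 to -0.0697.

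The lists outside the rule are to be read against the 4.99% of all tested genes called lower and the 2.97% called higher with the mean of both siRNAs. Of 9 listed, 3 ribosomal proteins with other symbols fell with the mean of both siRNAs, FAU (-0.45), AURKAIP1 (-0.53) and GADD45GIP1 (-0.52), none of which was among the 4 that fell with SCH772984. Of genes with other TOP mRNAs EEF1D fell (-0.39) and TOMM20 rose (0.88); TOMM20 had 238 and 271 CPM and 245 and 248 CPM with NRAS siRNA 1 and 2, against 130.0 and 143 CPM with the nonspecific siRNA, and 235 and 238 CPM with SCH772984, against 255 and 269 CPM with DMSO. The nonspecific siRNA libraries stood below all others, also against DMSO (-0.94, edgeR adjusted p = 0.00264). EEF1D and TOMM20 were the only 2 of 19 such genes called with the mean of the siRNAs. Of 32 mitochondrial translation and assembly factors, NGRN rose (0.54) and TFB1M fell, and of 20 mitochondrial aminoacyl-tRNA synthetase genes and their relatives GATC rose (0.38). TFB1M had 39.3 and 38.4 CPM and 41.5 and 42.03 CPM with NRAS siRNA 1 and 2, against 61.6 and 55.1 CPM (mean log2 fold change -0.53, SE 0.09, edgeR adjusted p = 0.00917), and was not called without nonspecific siRNA replicate 1. Of 16 regulators of ribosomal protein mRNA EIF4EBP1 (-0.58) and RPS6KA2 (-0.48) fell, and of 11 regulators of mitochondrial biogenesis PPARGC1B (-0.92) and POLRMT, the mitochondrial RNA polymerase (-0.72). None of the 5 tested paralogs and variants was called.

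The medians of both classes were below 0 with either treatment, and 1 member was called in both. Of 151 tested members, 106 (70.2%) had negative estimates both with the mean of the NRAS siRNAs and with SCH772984, against 33.5% of all tested genes. The 2 comparisons use different control libraries. MRPS2 was the member called in both, 12.5% of the 8 called with the siRNAs and 2.44% of the 41 called with the inhibitor, whereas over all tested genes 694 were called in both, 59.1% of the siRNA calls and 16.8% of the inhibitor calls. MRPS2 had 59.3 and 70.6 CPM and 52.1 and 64.6 CPM with NRAS siRNA 1 and 2, against 80.7 and 88.9 CPM with the nonspecific siRNA, and 62.7 and 60.9 CPM with SCH772984, against 76.97 and 94.8 CPM with DMSO. The treated libraries lay below both of their controls on either side. With SCH772984 it was not called without DMSO replicate 2 or without either inhibitor library, and with the siRNAs not without either control library, NRAS siRNA 1 replicate 1 or NRAS siRNA 2 replicate 1. With a GC trend removed from each library, a setting described below, MRPS2 was not called with the siRNAs (-0.34, edgeR adjusted p = 0.103). MRPL18 was then called lower in both (edgeR adjusted p = 0.0430 with the siRNAs and 0.00481 with SCH772984). RPLP1 was then called in both in opposite directions (-0.41 and 0.34). Across genes, Spearman's rho between the estimates was -0.08 over the 151 members and 0.45 over all tested genes, a description over genes measured in the same libraries.

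Tested directly, as the mean siRNA response minus the inhibitor response, 3 cytosolic and 3 mitochondrial members differed, where 7.3% of all tested genes did (2.73% in the positive and 4.57% in the negative direction), and the class medians were 0.15 and 0.12, against 0.02 for all genes. RPL37A gave the largest positive cytosolic difference: its siRNA libraries lay between the controls, at 1617 and 1541 CPM and 1585 and 1533 CPM against 1718 and 1429.7 CPM, and its level fell with the inhibitor (difference 0.66, SE 0.13, edgeR adjusted p = 0.0177). RPL29 and RPLP1 fell with the siRNAs and had positive estimates with SCH772984, of 0.20 and 0.27. Their differences were -0.72 (SE 0.16, edgeR adjusted p = 0.028) and -0.69 (SE 0.16, edgeR adjusted p = 0.0317). MRPL53 fell with the siRNAs and had an estimate of 0.20 with the inhibitor, at 25.2 and 21.8 CPM with SCH772984, against 19.6 and 21.3 CPM with DMSO, and its difference was -0.83 (SE 0.17, edgeR adjusted p = 0.0212). MRPL41 differed by -0.76 (edgeR adjusted p = 0.0499) and MRPL45 by 0.56 (edgeR adjusted p = 0.0383). MRPL45 had a positive estimate with the siRNAs, 0.30, and a negative one with the inhibitor, -0.26, neither past the threshold. The calls of all 6 depended on DMSO replicate 2 and on SCH772984 replicate 1, and calls over all tested genes fell without either of them too. TFB1M, outside the rule, differed by 1.23 (SE 0.14, edgeR adjusted p = 0.00117), in all of the 18 alternatives tried.

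Base composition moved with both responses, in opposite directions. Over 12468 tested genes with a GENCODE transcript, the median log2 fold change with the mean of the siRNAs was 0.08 for 1431 genes of at most 40% GC and -0.29 for 499 genes above 65% GC. With SCH772984 it was 0.01 and 0.53 in the same genes, with a low of -0.10 between 45 and 50%. Spearman's rho of fold change and GC content across genes was -0.55 over 76 cytosolic and -0.40 over 75 mitochondrial genes for the siRNAs, and 0.22 and 0.41 for the inhibitor, against -0.29 and 0.19 over all genes. The 8 members called lower with the siRNAs had a median GC content of 59.5% and the 40 called lower with the inhibitor 47.9%, where the median of all members was 50.3%. When the trend on GC was removed from each library, a setting chosen after the data had been seen, the medians with SCH772984 were -0.17 (cytosolic) and -0.22 (mitochondrial), and 22 and 23 genes were called, of which 15 and 14 were also called without it; with the trend removed 4614 of all tested genes were called, 31.3%. RPLP1 was among those newly called, here as higher with SCH772984. With the mean of the siRNAs 2 of the 3 cytosolic genes (RPL29 and RPLP1) and 2 of the 5 mitochondrial ones (MRPL52 and MRPL53) were still called, and MRPL17 and MRPL18 were newly called, 2 and 4 in all, where 1534 of all tested genes were, 10.4%. RPL36, MRPL12, MRPL41 and MRPS2 were no longer called. MRPL41, with 71.9% GC, then had estimates of -0.29 with the siRNAs (edgeR adjusted p = 0.155) and -0.55 with SCH772984 (edgeR adjusted p = 0.0162), so that its difference between the responses turned to 0.26 (edgeR adjusted p = 0.470). The differences of RPL37A, RPL29, RPLP1 and MRPL53 were 0.57, -0.61, -0.75 and -0.86 with the trend removed, all past the threshold, and those of MRPL41 and MRPL45 were not. The source of the trend was not tested.

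**Figure D5:**
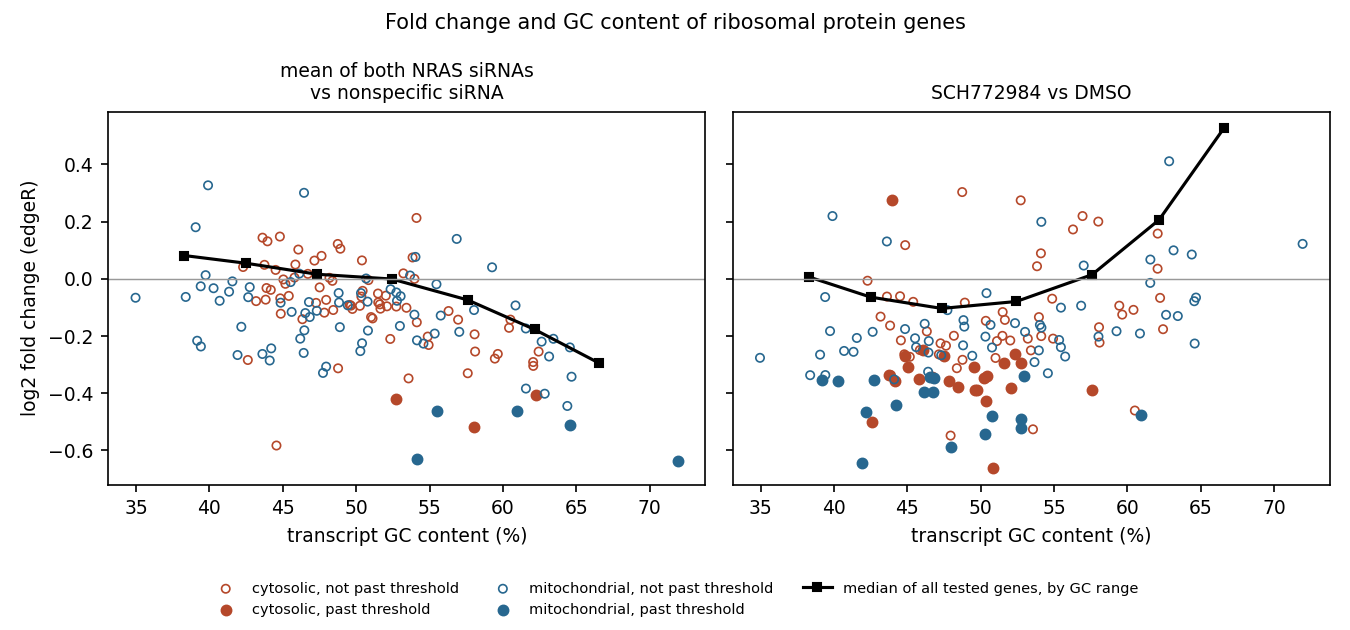
Fold change (log2, edgeR) of each tested ribosomal protein gene against the GC content of its transcripts, for the mean of both NRAS siRNAs against the nonspecific siRNA (left) and SCH772984 against DMSO (right); red is cytosolic, blue mitochondrial, filled points passed the threshold, and black squares are medians of all tested genes by GC range. The black line falls to -0.29 at high GC on the left and climbs to 0.53 on the right, and the members follow the slope on each side, with medians below the line in every GC range of both panels.

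Between the control groups, nonspecific siRNA against DMSO, edgeR called 0 of 76 cytosolic and 0 of 75 mitochondrial genes, where 0.379% of all tested genes were called, and the class medians were -0.10 and -0.10. DESeq2 called 1 and 0, where it called 2.45% of all tested genes. Both nonspecific siRNA libraries were below both DMSO libraries in 13 and 31 genes, where it was 18.6% of all tested genes. These groups differ in time, in transfection and in the DMSO given, which cannot be told apart. The medians between the control groups were of the same order as the -0.09 and -0.13 with the mean of the NRAS siRNAs. They were smaller in size than the -0.22 with SCH772984, a comparison that uses the same 2 DMSO libraries. With 1 library left out, the medians ran from -0.1855 to -0.0016 and -0.1779 to -0.0222 between the controls. With SCH772984 they then ran from -0.3139 to -0.0873 and -0.3209 to -0.0894, so that the ranges overlap.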

How the data were processed

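RNA of 10 libraries from RD cells was sequenced after poly-A selection with a stranded kit, per the labels' protocols. The deposited values are raw read counts per gene, from TopHat2, SAMtools and HTSeq on hg19 (GRCh37), per the submitters' processing notes; no version is given in the sources used here. HTSeq's 5 category lines (reads with no gene, ambiguous, not uniquely aligned) were kept out of library sizes and tests; reads with no gene were 9.91 to 11.3% and ambiguous reads 0.591 to 0.649% of all reads. The 10 single-library files held the same counts as the series table. Libraries held 23224063 to 30768970 reads in genes, so that 3 counts, the limit that a count of 0 allows, stood for 0.0952 to 0.132 CPM, covering counting error only. Correlation between replicates of a group across genes was 0.992 to 0.995, and no pair was alike within counting error.

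Counts were filtered (filterByExpr, minimum count 10), scaled by TMM and fitted in 1 model of all libraries with 5 residual degrees of freedom (edgeR 4.0.16, glmQLFit and glmQLFTest, R 4.3.3, limma 3.58.1), with Benjamini-Hochberg adjustment over 14761 genes and a threshold of 0.05. The SE is the log2 fold change divided by the root of F. CPM used TMM-scaled library sizes. The script was tested on simulated data. Alternatives were other scalings, no filter, only the compared groups, DESeq2 1.42.0, a replicate block, each library left out, and, added after the data were seen, removal of a GC trend per library, the comparison of both siRNAs and a background of genes under 1000 bases. The members and lists were chosen with earlier results of these data known. Genes were named by a rule: a set of well-known members, those with the lowest and highest fold changes in each comparison and class, and up to 4 per list. Lengths, GC content and pseudogenes came from GENCODE v29, for 84.5% of tested genes, by symbol. Start sites and sequences came from RefSeq on GRCh38.p14, not the build of the counts, and no coordinates of the counts were used. Protein sequences were not used here. The labels spell the inhibitor in more than 1 way. The replicate numbers of the labels were not taken as pairing libraries. Some genes of the lists are not reported here.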

Additional observations from a re-analysis of the deposited data

Results flagged for a closer look

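In 6 of 151 tested members the mean response to the NRAS siRNAs differed from the response to SCH772984 by a test of the difference itself (edgeR, Benjamini-Hochberg adjustment over all tested genes). By the same test 7.3% of all tested genes differed, 2.73% in the positive and 4.57% in the negative direction. The dependence of these 6 on single libraries is given above. RPL29 differed by -0.7183 on the log2 scale, RPLP1 by -0.6939, MRPL41 by -0.7589 and MRPL53 by -0.8280, lower with the siRNAs relative to the inhibitor. RPL37A differed by 0.6564 and MRPL45 by 0.5585, in the other direction. With the GC trend removed from each library the difference of MRPL41 turned to 0.2594 (edgeR adjusted p = 0.470) and that of MRPL45 was no longer past the threshold (edgeR adjusted p = 0.0645). With 2 libraries per group no single library could be tested as standing apart.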

How the results depend on the processing

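Numbers of called members are given below as cytosolic and mitochondrial. With NRAS siRNA 1 (0 and 0 as reported), 1 and 1 were called without a filter, 1 and 2 by DESeq2, and 1 mitochondrial gene with the GC trend removed. Relative to the 14761 tested genes, these settings called 5.32%, 5.13% and 3.6% over all genes, against 2.07% as reported. With NRAS siRNA 2 (4 and 5), 8 cytosolic genes were called without a filter, 3 mitochondrial ones with DESeq2's size factors, 0 and 1 with only the compared groups, and 8 and 9 by DESeq2. Over all genes it was 11.4%, 6.19%, 1.52% and 11% in the same order, against 6.43%. With the mean of the siRNAs (3 and 5), upper-quartile scaling gave 1 cytosolic gene, no filter 5, only the compared groups 1 and 1, and DESeq2 9 mitochondrial genes. Over all genes these gave 7.23%, 12%, 2.88% and 11.3%, against 7.95%. With SCH772984 (24 and 17), upper-quartile scaling gave 11 and 11 and only the compared groups 14 cytosolic genes, where 26.7% and 27% of all genes were called, against 28%. For the difference between the responses (3 and 3), the GC trend removed left 1 mitochondrial gene, where 6.14% of all genes were called, against 7.3%. For nonspecific siRNA against DMSO (0 and 0), DESeq2 called 1 cytosolic gene, where it called 2.45% of all genes, against 0.379%.

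A block for the replicate number, which the labels do not say pairs libraries and whose deviations correlated between groups at 0.024 to 0.562, gave 1 and 4 with NRAS siRNA 1, 15 and 13 with NRAS siRNA 2, 10 and 15 with their mean, 33 and 26 with SCH772984, 7 and 5 for the difference, and 1 cytosolic gene between the controls. Over all tested genes the block gave 8.67%, 19.1%, 19.3%, 38.3%, 16.1% and 3.02% in the same order of comparisons, so that the calls rose with those of all genes. With the block and the GC trend removed the counts were 2 and 8, 19 and 23, 13 and 22, 36 mitochondrial genes with SCH772984, 6 and 6, and 3 and 3. Over all tested genes that setting gave 15.1%, 26.3%, 26.7%, 44.3%, 16.6% and 8.53% in the same order.

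Leaving out 1 library gave 0 and 0 with NRAS siRNA 1, 0 to 4 and 0 to 8 with NRAS siRNA 2 and with the mean, 2 to 31 and 2 to 20 with SCH772984, 0 to 4 and 0 to 3 for the difference, and 0 and 0 between the controls. Each such fit leaves 1 library in a group, so these counts do not show a gain or loss of members. Over all tested genes, fewer were called with SCH772984 in every such fit than with all libraries, also where more members were called. In the other comparisons fewer were called too, except for NRAS siRNA 2 and the mean without NRAS siRNA 2 replicate 2. Median log2 fold changes ran from -0.0768 to 0.0662 and -0.1157 to -0.0428 with NRAS siRNA 1, from -0.1896 to -0.0634 and -0.2103 to -0.1138 with NRAS siRNA 2, and from -0.1252 to -0.0023 and -0.152 to -0.0697 with the mean. They ran from -0.3139 to -0.0873 and -0.3209 to -0.0894 with SCH772984, from 0.0287 to 0.2352 and 0.0235 to 0.2214 for the difference, and from -0.1855 to -0.0016 and -0.1779 to -0.0222 between the controls.

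As a percentage of reads outside the 50 highest genes, the cytosolic share was 2.6686 and 2.4656 with NRAS siRNA 1 and 2, against 2.6530 with the nonspecific siRNA, and 2.4831 with SCH772984, against 2.7727 with DMSO. The mitochondrial share was 0.4531 and 0.4321, against 0.4719, and 0.4434, against 0.5039. Without the most counted member the cytosolic share was 2.2688 and 2.0888 with NRAS siRNA 1 and 2 and 2.1472 with SCH772984. The mitochondrial share was then 0.3943 and 0.3765 with the siRNAs, against 0.4102 with the nonspecific siRNA, and 0.3862 with SCH772984. The other control shares without that member are not given here. These values are not to be set against shares that include it.

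With the GC trend removed, AURKAIP1 with SCH772984 turned sign, to -0.4059 (edgeR adjusted p = 0.02) and -0.3997 with the block, as did MRPL41 with SCH772984, to -0.55, and the difference of MRPL41, to 0.2594 and 0.2630 with the block. The cause was not tested. RPL37A and MRPL39 with SCH772984 passed the threshold in all of the 13 alternatives run for them. With 2 libraries per group small changes can be missed, and genes with many copies are counted only in part.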
